A study of Rattus norvegicus with 9 samples.

Results

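The 10 genes described here code for proteins that carry magnesium across membranes, and their RNA was measured in rat kidneys on Agilent arrays of 1 colour. They were chosen by the measured log2 difference of one of them, since Slc41a1 is among the lowest genes in kidneys perfused with mesenchymal stromal cells (MSC). Every spot of the arrays whose gene name equals one of the 10 was taken. This gave 10 of 26115 gene names, 13 of 30367 gene probes (oligos of 60 bases) and 29 of 58717 gene spots.

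The kidney keeps magnesium mainly by taking it back from the forming urine. Most of it crosses between the cells of the thick ascending limb, and the distal convoluted tubule then sets the final loss through channels of the apical membrane and transporters of the basolateral side. Other proteins of the group serve every cell, in the plasma membrane or in the mitochondrion.

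Kidneys came from Fisher F344 rats, and each array held RNA of 1 kidney. All kidneys had 20 min. of warm ischaemia before they were removed, made by clamping the abdominal aorta per the labels and the renal artery per the methods. The 4 MSC kidneys were then perfused for 4 hrs at 4°C with Belzer solution (BS, a preservation fluid) holding 3000000 MSC, which came from bone marrow of Sprague Dawley rats that carry an EGFP transgene. A further MSC array was discarded by the study for its poor quality. The 5 control kidneys are called NP (not perfused), after their treatment label and the study. Titles and descriptions instead place these 5 in a cold BS perfusion of the same length, and the conflict could not be settled from the files. If the treatment label is right, the effects of MSC and of the perfusion itself cannot be told apart. Ages were not given in the sources used here, and kidneys perfused with BS alone or with vesicles were not analysed here.

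Values are log2 normalized intensities, so that a difference of 1 is a doubling, and the scale has no meaning between probes. Between 65.6% and 74.3% of gene spots were well above background on an array. A probe was tested where it exceeded a threshold set by the negative controls on at least 4 arrays, and 15841 probes were. The arrays lay on 2 slides. On the first were NP replicates 1 to 3 and MSC replicates 1 and 2, and the rest were on the second. In whole tissue, fewer cells of a type and less RNA per cell cannot be told apart.

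Nephron segments were represented by their markers, including the genes for the sodium chloride transporters of the thick ascending limb (Slc12a1) and of the distal convoluted tubule (Slc12a3). Pvalb, a marker of the early distal convoluted tubule, was not well above background on any array. Some marker lists differed in score between the groups, as given beside the results. Fat markers scored 2.37 on MSC replicate 3 and 1.45 on MSC replicate 4, against -1.01 to 0.12 on the other 7 arrays, as mean log2 deviation of 4 genes. The red cell score, from Hbb and Alas2, was -2.72 on MSC replicate 1 and -1.12 on MSC replicate 3, against 0.26 to 1.00 on the others.

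The oligos that carry the comparisons below are printed from 5′ to 3′ as the array files give them. For those that may lie in an untranslated region, only the first 30 of their 60 bases are shown.
Slc41a1, A_42_P662683: cgggttgcacctgtcgcatgtacttttggc
Slc41a1, A_64_P049859: agatagcagatactgggaccagctgagacc
Trpm6, A_64_P031058: cccacttggagtagaatgctgtgtactaaa
Trpm6, A_64_P106021: gaggaacatccagaaagagacagaaataga
Trpm7, A_64_P116734: cgcagagataagctgttaaatagtgtttaa
Trpm7, A_44_P550412: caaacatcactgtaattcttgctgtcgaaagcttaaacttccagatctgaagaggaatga
Magt1, A_44_P191593: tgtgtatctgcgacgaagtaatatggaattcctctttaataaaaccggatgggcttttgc
Positions are those of the files, on the rat build rn4 (RGSCv3.4), and the annotation of that build was not used here, so that exons and untranslated regions are not assigned. The Slc41a1 oligos lie at chr13:44780482-44780541 and chr13:44768794-44768853 on the plus strand, and start at bases 4462 and 502 of the transcript that the files name. The Trpm6 oligos lie at chr1:222502509-222502568 and chr1:222502132-222502191 on the plus strand. The Trpm7 oligos lie on the minus strand, at chr3:114320873-114320932 and chr3:114322191-114324601. The last of these spans 2411 bases of the genome for 60 bases of oligo, so that it crosses a gap between aligned blocks. The Magt1 oligo lies at chrX:94110037-94110096 on the minus strand. None of the 13 oligos shared a run of 16 bases on either strand with an oligo of another gene on the array (0 oligos).

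Slc41a1 codes for a plasma membrane protein that exchanges magnesium for sodium. Its probe A_42_P662683, printed in 10 spots on each array, was lower in MSC kidneys. The log2 values were 12.46, 12.46, 12.27, 12.29 and 12.35 on NP replicates 1 to 5. They were 11.91, 11.94, 12.11 and 11.81 on MSC replicates 1 to 4. All MSC arrays lay below all NP arrays, and MSC replicate 3 was nearest to the NP range. The means were 12.37 ± 0.09 (SD, n = 5) in NP and 11.94 ± 0.12 (SD, n = 4) in MSC. NP kidneys thus had 1.34-fold the intensity of MSC kidneys, a log2 difference of -0.42 (SE 0.08). The difference was -0.47 within the first slide and -0.36 within the second. The SD between the 10 spots of one array ranged from 0.07 on MSC replicate 4 to 0.19 on NP replicate 2.

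These values chose the group and are a description without a test. By its p from limma, this probe had rank 3 among the probes lower in MSC, and by the size of its log2 difference rank 444 from the lowest of all 15841 probes tested. Under an adjusted p of 0.05, limma called 0 of 15841 probes (0%) in this comparison. Under an unadjusted p of 0.05, 823 probes (5.2%) were lower and 1031 (6.51%) higher in MSC. The groups did not overlap, with MSC lower, in 2.13% of 15839 probes with a value on every array, and with MSC higher in 3.14%.

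The second Slc41a1 probe, A_64_P049859, has 1 spot and lies nearer the start of the transcript. Its log2 values were 8.65, 9.20, 9.16, 9.03 and 8.98 on NP replicates 1 to 5. They were 8.65, 8.90, 8.82 and 8.95 on MSC replicates 1 to 4. NP replicate 1 lay among the MSC arrays, next to the lowest of them, and the other NP arrays lay above all MSC arrays. The log2 difference was -0.18 (SE 0.12, n = 5 and 4), with the same sign on both slides (-0.23 and -0.12). It was -0.26 without NP replicate 1, -0.12 without MSC replicate 1 and -0.37 with the background-subtracted signal under 75th percentile scaling. Both Slc41a1 probes were thus lower on average in MSC kidneys, by unequal amounts.

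**Figure D1:**
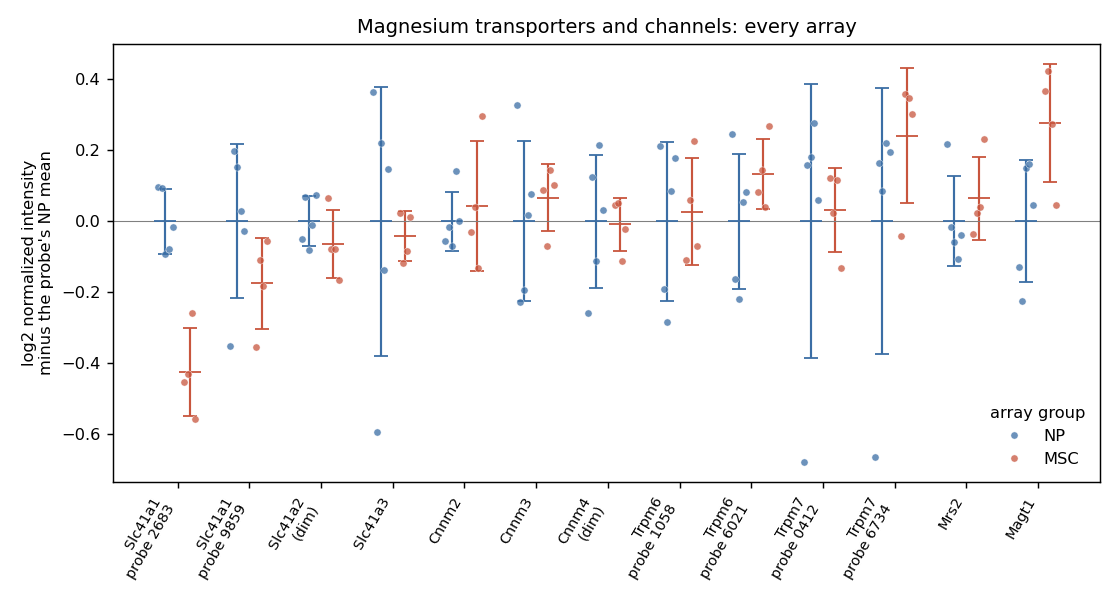
Log2 normalized intensity of each member probe on each array (points), minus that probe's NP mean, with the mean and SD of the 5 NP and 4 MSC arrays. Probes of genes with several probes are named by the last digits of their identifiers, and dim marks probes that did not pass the filter; the first Slc41a1 probe is the only one whose groups do not overlap, and NP replicate 1 lies far below the other arrays on both Trpm7 probes.

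Slc41a2 and Slc41a3 are relatives of Slc41a1 that also carry divalent cations. The Slc41a2 probe did not pass the filter. It was well above background on 2 of 5 NP arrays and on 0 of 4 MSC arrays, with means of 8.09 in NP and 8.03 in MSC. In the fit without the filter its log2 difference was -0.06 (SE 0.06), with a 95% interval from -0.19 to 0.06, and the groups overlapped. The Slc41a3 probe ranged from 8.96 (NP replicate 2) to 9.92 (NP replicate 1) in NP with a median of 9.71. In MSC it ranged from 9.44 to 9.58 with a median of 9.52. All 4 MSC arrays lay inside the NP range, and the log2 difference was -0.04 (SE 0.17; adjusted p = 0.946, limma). No difference of Slc41a3 larger than the spread between arrays was detected, and the 95% interval of the difference ran from -0.43 to 0.35. Leaving out 1 array moved the difference from -0.19 (without NP replicate 2) to 0.05 (without NP replicate 1). Whether the 3 genes differ in their response was not tested.

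The Cnnm genes code for membrane proteins with a cystathionine beta-synthase domain. Cnnm2 is found on the basolateral side of the distal convoluted tubule and is mutated in an inherited loss of magnesium. Its log2 values ranged from 10.91 to 11.13 (median 10.97) in NP and from 10.85 to 11.28 (median 10.99) in MSC. MSC replicate 4 was the highest of the 9 arrays and MSC replicate 3 the lowest. The log2 difference of 0.04 (SE 0.10) had an adjusted p of 0.890 in limma and a 95% interval from -0.17 to 0.26. The sign turned without MSC replicate 4, where the difference was -0.04.

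Cnnm3 lay between 14.35 and 14.91 (median 14.60) in NP and between 14.51 and 14.73 (median 14.67) in MSC. All MSC arrays fell inside the NP range, and NP replicate 1 was the highest array. The log2 difference was 0.07 (SE 0.12; adjusted p = 0.856, limma), with a 95% interval from -0.20 to 0.33. It was 0.15 without NP replicate 1 and 0.01 without NP replicate 2. The Cnnm4 probe did not pass the filter, although it was well above background on all 9 arrays. In the fit without the filter its difference was -0.01 (SE 0.09), from NP values of 8.41 to 8.89 and MSC values of 8.56 to 8.72. The 3 Cnnm genes thus held differences of at most 0.07 in size, each less than its own SE.

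Trpm6 and Trpm7 code for cation channels joined to a kinase domain. Trpm6 is the apical magnesium channel of the distal convoluted tubule, and Trpm7 is made by nearly every cell. The brighter Trpm6 probe, A_64_P031058, had log2 values of 11.74, 11.33, 11.24, 11.61 and 11.70 on NP replicates 1 to 5. On MSC replicates 1 to 4 they were 11.42, 11.59, 11.75 and 11.46. NP replicates 2 and 3 were the lowest arrays and the groups overlapped. The second probe, A_64_P106021, gave 10.22, 9.81, 9.75, 10.02 and 10.05 in NP and 10.05, 10.11, 10.01 and 10.24 in MSC. Here too NP replicates 2 and 3 lay below all the other arrays. The log2 differences were 0.03 (SE 0.13; adjusted p = 0.950, limma) and 0.13 (SE 0.11; adjusted p = 0.645, limma). Their 95% intervals ran from -0.25 to 0.31 and from -0.10 to 0.37. Leaving out 1 array gave -0.04 to 0.08 for the first, both from NP replicates (3 and 1). For the second it gave 0.08 (without NP replicate 3) to 0.20 (without NP replicate 1). The second was 0.22 with the background-subtracted signal under 75th percentile scaling. Trpm6 RNA therefore gave no difference that these arrays could tell from their spread.

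NP replicates 2 and 3 were also lowest in the score of the distal convoluted tubule. That score rests on Slc12a3 and Wnk1, the detected 2 of 4 listed markers. Of the rest Klhl3 has no probe on the array and Pvalb was near background. The score takes the brighter probe of each gene. On the dimmer Wnk1 probe NP replicate 2 was instead the highest array (11.13) and NP replicate 1 the lowest (9.16), with a log2 difference of -0.30. The score was -0.44 on NP replicate 2 and -0.50 on NP replicate 3, and between -0.04 and -0.02 on the other NP arrays. On the MSC arrays it was 0.13 to 0.44, above all NP arrays. The part of these markers in the Trpm6 values was not tested.

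The brighter Trpm7 probe, A_64_P116734, had log2 values of 10.84, 11.66, 11.59, 11.72 and 11.70 on NP replicates 1 to 5. On MSC replicates 1 to 4 they were 11.46, 11.86, 11.85 and 11.80. NP replicate 1 lay far below the other arrays, and 3 of 4 MSC arrays lay above all NP arrays. The second probe, A_44_P550412, gave 8.37, 9.21, 9.23, 9.33 and 9.11 in NP and 9.17, 9.07, 9.17 and 8.92 in MSC. NP replicate 1 was again the lowest, and all MSC arrays lay inside the NP range. The log2 differences were 0.24 (SE 0.18; adjusted p = 0.630, limma) and 0.03 (SE 0.18; adjusted p = 0.959, limma). Without NP replicate 1 they were 0.08 and -0.14, so that the size of the first and the sign of the second rest on that array. With array weights the first was 0.09.

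For Trpm6 and Trpm7 the difference between both probes of a gene was taken on each array. A shift of a whole array cancels in it, but a normalization that acts by intensity, such as cyclic loess, does not. For Trpm6 the brighter probe exceeded the other by 1.55 ± 0.06 (SD, n = 5) in NP and 1.45 ± 0.22 (SD, n = 4) in MSC. The exact permutation test, two-sided and over 126 ways to divide the arrays, gave p = 0.325 (0.325 adjusted over the 2 pairs). For Trpm7 the values were 2.45 ± 0.09 (SD, n = 5) in NP and 2.66 ± 0.26 (SD, n = 4) in MSC, with an exact p of 0.135 (0.270 adjusted). The smallest p this test can give is 0.00794. With 75th percentile scaling the differences between groups were -0.13 for Trpm6 and 0.19 for Trpm7, against -0.11 and 0.21. Leaving out 1 array gave -0.20 (without MSC replicate 3) to -0.03 (without MSC replicate 4) for Trpm6 and 0.13 (without MSC replicate 4) to 0.33 (without MSC replicate 1) for Trpm7. The lowest Trpm6 value and the highest Trpm7 value each had an adjusted exact p of 0.0357. On NP arrays the SD of the Trpm6 difference was below the SDs of its probes (0.22 and 0.19), and it was 0.07 without NP replicate 1, below 0.22 and 0.15. For Trpm7 it was below the SDs of its probes (0.37 and 0.39) through NP replicate 1 alone, and without that array it was 0.10, above 0.06 and 0.09. On MSC arrays the SD of the difference exceeded that of both probes in each gene (0.15 and 0.10 for Trpm6, 0.19 and 0.12 for Trpm7).

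**Figure D2:**
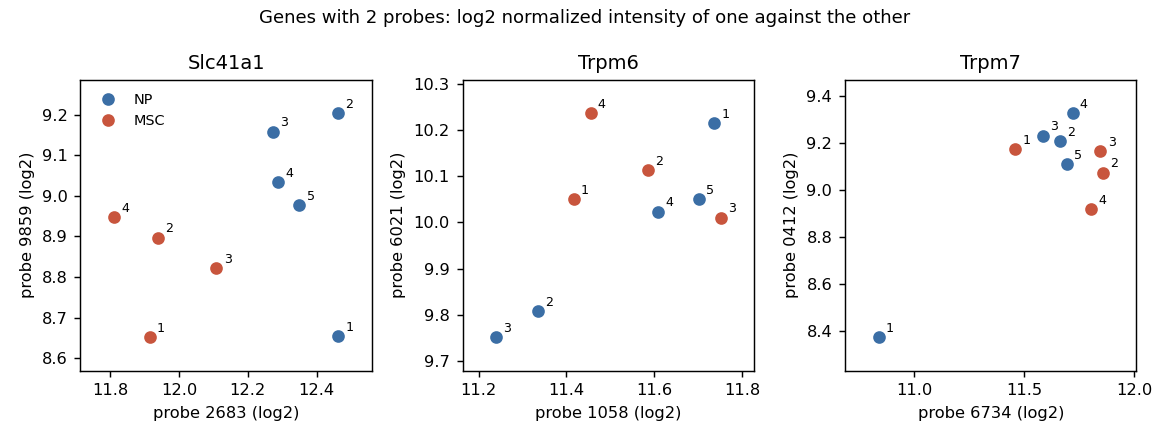
Log2 normalized intensity of one probe against the other for the 3 members with 2 probes, 1 point an array, numbered by replicate. For Trpm7, NP replicate 1 stands apart on both axes, and for Trpm6 NP replicates 2 and 3 are the lowest on both; the Slc41a1 groups are separated along the horizontal axis only.

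Mrs2 codes for the magnesium channel of the inner mitochondrial membrane. Its log2 values ranged from 12.56 to 12.88 (median 12.62) in NP and from 12.63 to 12.89 (median 12.69) in MSC. The highest arrays were MSC replicate 4 and NP replicate 1, and the groups overlapped. The log2 difference was 0.06 (SE 0.09; adjusted p = 0.810, limma), and it was -0.05 within the first slide and 0.21 within the second. It was 0.12 without NP replicate 1 and 0.01 without MSC replicate 4.

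Magt1 codes for a subunit of the oligosaccharyltransferase, the complex that adds sugar chains to new proteins, and was first described as a magnesium transporter. Its log2 values were 10.54, 10.45, 10.82, 10.83 and 10.72 on NP replicates 1 to 5. They were 11.04, 11.10, 10.95 and 10.72 on MSC replicates 1 to 4. MSC replicates 1 to 3 lay above all NP arrays, and MSC replicate 4 lay inside the NP range. MSC kidneys had 1.21-fold the intensity of NP kidneys, a log2 difference of 0.28 (SE 0.11). In limma its unadjusted p was 0.0332 and its adjusted p = 0.399, so that it did not pass the test across all probes. The difference was 0.46 within the first slide and 0.06 within the second. Its unadjusted p was under 0.05 with all 9 arrays but in only 4 of the 9 fits that leave out 1 array.

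Taking the 9 genes other than Slc41a1, 9 of their 11 probes passed the filter, and these belong to 7 genes. Limma called 0 of the 9 at an adjusted p of 0.05. At an unadjusted p of 0.05, 0 were lower in MSC and 1 (Magt1) was higher, where the shares over all probes were 5.2% and 6.51%. Of the log2 differences, 1 was below and 8 were above 0, with a median of 0.06 against -0.005 over all probes tested. The contrast is the one from which the group was chosen, and nothing is read from these shares.

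**Figure D3:**
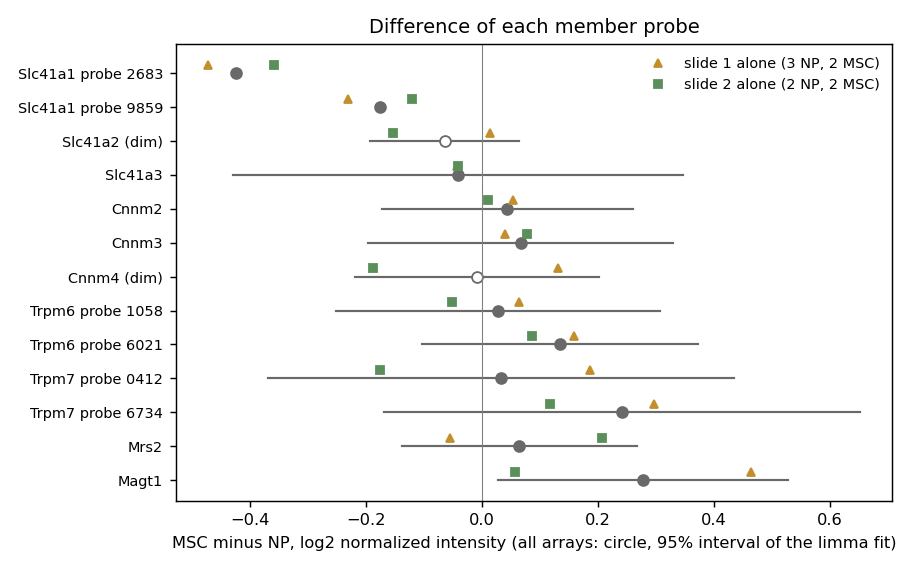
Log2 difference between MSC and NP for each member probe (circle) with the 95% interval of the limma fit, open where the probe did not pass the filter; triangles and squares give the difference within the first and the second slide. No interval is drawn for Slc41a1, which chose the group. Of the others only the interval of Magt1 lies on one side of 0, and the slides give opposite signs for Slc41a2, Cnnm4, one Trpm6 probe, one Trpm7 probe and Mrs2.

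The list of other genes of magnesium handling held 48 genes, of which 47 have probes on the array. Of their 62 probes, 52 passed the filter, from 41 genes. Limma called 0 of the 52 at an adjusted p of 0.05. At an unadjusted p of 0.05, 1 was lower in MSC and 12 were higher, beside 5.2% lower and 6.51% higher over all probes. The number lower was 4 without NP replicate 1, and the number higher was 7 without MSC replicate 4. The median log2 difference was 0.07, against -0.005 over all 15841 probes.

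Among the partners and relatives of the members, 1 of 20 probes was lower (Slc25a23) and 1 higher (Tusc3) at an unadjusted p of 0.05, where the shares over all probes were 5.2% and 6.51%. Tusc3, the relative of Magt1 in the same complex, had a log2 difference of 0.35 (SE 0.11; adjusted p = 0.334, limma). It was 0.35 within the first slide and 0.37 within the second, and 3 of 4 MSC arrays lay above all NP arrays. Slc25a23, a mitochondrial carrier of ATP with magnesium, had -0.41 (SE 0.10; adjusted p = 0.334, limma) and no overlap of the groups. Slc25a23, and Kcnj1 and Wnk1 below, were named after their values were seen.

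Cnnm1, the member of the Cnnm family not in the group above, had a log2 difference of -0.50 (SE 0.28; adjusted p = 0.512, limma). It was -0.87 within the first slide and -0.03 within the second, and without NP replicate 2 it was -0.28. The phosphatases that bind Cnnm proteins gave 0.10 for Ptp4a1, -0.28 for Ptp4a2 and 0.02 for Ptp4a3. Without NP replicate 2, Ptp4a1 gave 0.15 and Ptp4a2 -0.10. Ptp4a3 ranged from -0.08 (without MSC replicate 3) to 0.11 (without NP replicate 5). Arl15, a small GTPase that binds the same proteins, gave 0.17 (SE 0.08, adjusted p = 0.441 in limma). It was 0.29 with the background-subtracted signal under 75th percentile scaling. Nipa1 and Nipa2, which also carry magnesium, gave 0.03 and -0.06, and both changed sign without MSC replicate 4. None of these 7 genes passed the test.

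In the thick ascending limb, magnesium passes between cells through claudins, driven by the voltage that salt transport sets up. Of this list 0 of 16 probes were lower and 4 higher at an unadjusted p of 0.05 (5.2% and 6.51% over all probes). The claudins of the pore gave log2 differences of -0.33 for Cldn16 (SE 0.16; adjusted p = 0.453, limma) and -0.02 for Cldn19, whose second probe had 0.29. Cldn16 gave -0.22 without MSC replicate 3, and the first Cldn19 probe ranged from -0.12 (without NP replicate 2) to 0.07 (without NP replicate 1). Cldn10 gave 0.21, or 0.11 without NP replicate 2. Cldn14, which closes the pore, gave 0.53 (SE 0.53). It ranged from 0.07 (without MSC replicate 4) to 0.87 (without MSC replicate 1). With array weights it was 0.02, and with the background-subtracted signal under 75th percentile scaling 0.98. Slc12a1, the salt transporter, gave 0.50 (SE 0.19; adjusted p = 0.386, limma), while the calcium-sensing receptor Casr gave -0.14 and Umod, the most abundant protein of normal urine, 0.15. Casr ranged from -0.26 (without MSC replicate 4) to -0.07 (without NP replicate 4) and was -0.32 with array weights. Umod ranged from 0.02 (without MSC replicate 4) to 0.25 (without NP replicate 2). Kcnj1, a potassium channel, had 3 probes, and its brightest gave -0.03 where the one at an unadjusted p under 0.05 gave 0.31.

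In the distal convoluted tubule, potassium channels of the basolateral membrane help to set up the voltage that drives magnesium through Trpm6. Of this list 0 of 16 probes were lower and 7 higher at an unadjusted p of 0.05 (5.2% and 6.51% over all probes), among them probes of Slc12a3, Kcnj16, Egf and Wnk1. Egf is a growth factor that acts on Trpm6, and one of its probes had the largest log2 difference of the list. Its probe A_64_P120734 had a mean of 12.31 ± 0.54 (SD, n = 5) in NP and 13.69 ± 0.23 (SD, n = 4) in MSC. All MSC arrays lay above all NP arrays, and the log2 difference was 1.37 (SE 0.25; adjusted p = 0.334, limma). The brighter Egf probe, in 10 spots, gave 0.65 (SE 0.20; adjusted p = 0.334, limma), and 3 of 4 MSC arrays lay above all NP arrays.

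The Egf receptor, Egfr, gave -0.33 (SE 0.39; adjusted p = 0.765, limma), which ranged from -0.52 (without NP replicate 4) to -0.11 (without NP replicate 2) and turned to 0.04 with array weights. Slc12a3 gave 0.41 (SE 0.17; adjusted p = 0.401, limma), and its second probe 0.59. Kcnj16, a potassium channel of the basolateral membrane, gave 0.31 (SE 0.08; adjusted p = 0.334, limma) with no overlap of the groups. Its partner Kcnj10 did not pass the filter. Fxyd2 gave -0.12, or -0.18 with 75th percentile scaling, and Pcbd1 gave 0.04, ranging from -0.01 (without MSC replicate 1) to 0.15 (without MSC replicate 4), and both genes are mutated in inherited forms of magnesium loss. Wnk1, a kinase that acts on Slc12a3, gave 0.51 on its brighter probe and -0.30 on the other.

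**Figure D4:**
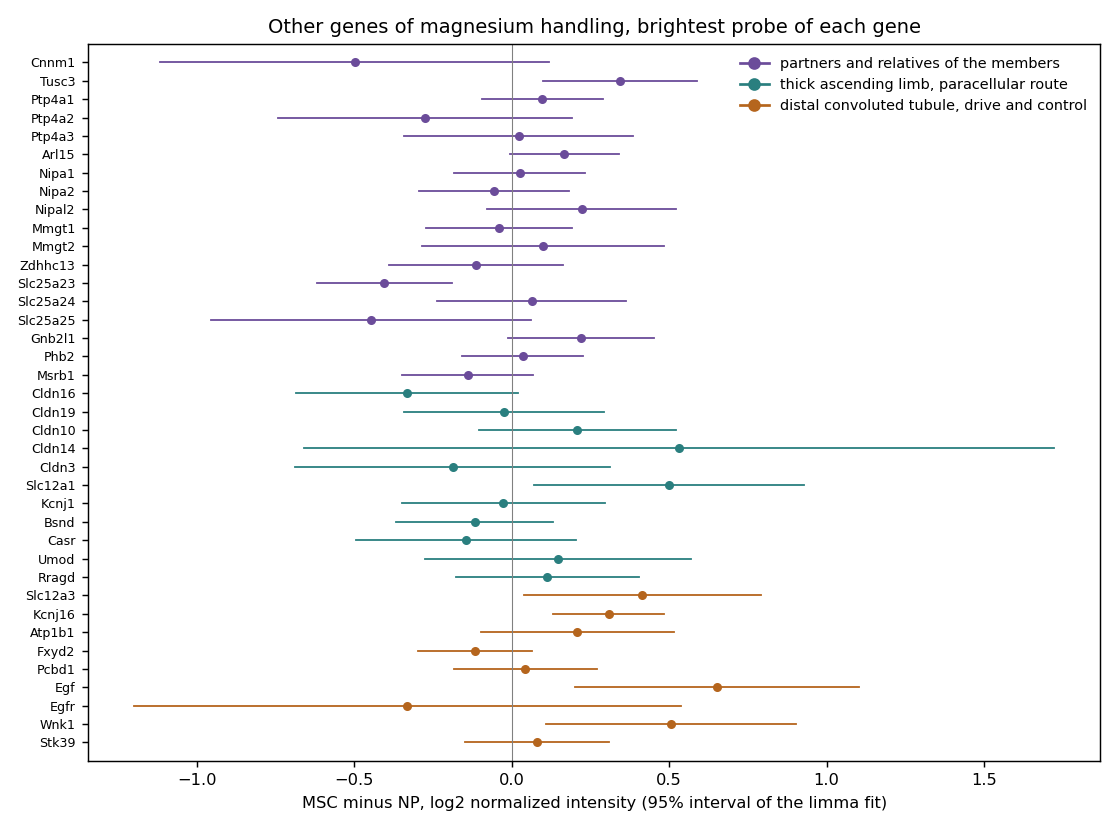
Log2 difference between MSC and NP with the 95% interval of the limma fit, for the brightest tested probe of 38 other genes of magnesium handling, coloured by list. Intervals above 0 are seen for Tusc3, Slc12a1, Slc12a3, Kcnj16, Egf and Wnk1 and an interval below 0 for Slc25a23, none of them past an adjusted p of 0.05.

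Among the marker lists of neighbouring segments, the groups were separated for the connecting tubule alone. The connecting tubule list (5 genes) scored -0.47 to 0.08 in NP and 0.09 to 0.43 in MSC. The intercalated cell list (5 genes) scored -0.68 to 0.22 in NP and 0.14 to 0.59 in MSC, and the principal cell list (5 genes) -0.64 to 0.08 in NP and -0.06 to 0.50 in MSC, so that both lists overlapped. The thick ascending limb list overlapped as well, with -0.37 to 0.33 in NP and -0.24 to 0.29 in MSC, and so did the proximal tubule list, with -0.23 to 0.06 in NP and 0.02 to 0.16 in MSC. Slc12a3, Wnk1, Slc12a1, Umod, Kcnj1 and Cldn16 belong to a marker list as well as to a list of magnesium handling. The list for mesenchymal stromal cells and fibroblasts, of which 4 of 6 genes were detected, scored -0.63 to 0.23 in NP and -0.20 to 0.43 in MSC. The podocyte, endothelium, leukocyte and smooth muscle lists overlapped between the groups, with MSC replicate 4 apart on podocyte markers (-0.87, against -0.34 to 0.39 on the other arrays). The part of these markers in the gene differences was not tested.

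**Figure D5:**
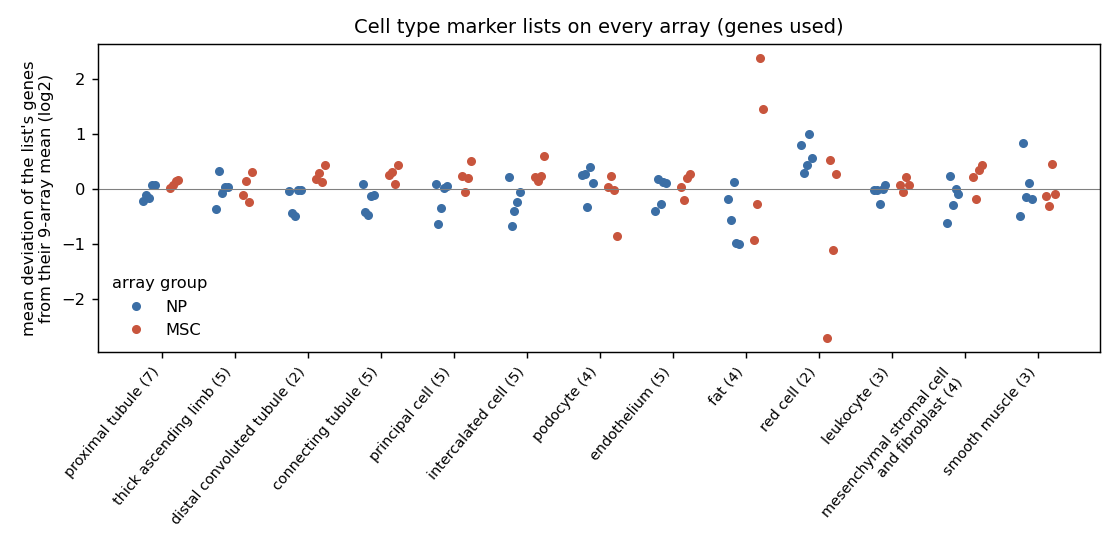
Mean log2 deviation of each marker list from its mean over the 9 arrays, 1 point an array, with the number of genes used in brackets. The MSC points lie above all NP points for the distal convoluted tubule and the connecting tubule, while MSC replicates 3 and 4 stand apart for fat and MSC replicates 1 and 3 for red cells.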

How the data were processed

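Each array measured Cy3-labelled RNA of 1 kidney, in 5 NP and 4 MSC arrays, grouped by the treatment label. The intensity of each spot was made by the authors with Agilent Feature Extraction 10.7.3.1, and the mean pixel intensity was deposited without background subtraction. The authors also deposited a table of normalized log2 values, used as an alternative. Here the raw intensities were log2 transformed and normalized by cyclic loess in limma 3.58.1 under R 4.3.3. Their Pearson's r with the deposited log2 values was at least 0.9999 across probes on every array. Spots with outlier flags (273 to 593 gene spots on an array) were left out and the spots of a probe averaged. A probe was kept where its value exceeded 1.1 times the 95th percentile of the log2 negative controls on at least 4 arrays, the study's filter as read here. This kept 15841 of 30367 gene probes. Every probe was kept, whereas the study kept 1 a gene.

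Groups were compared by a linear model for each probe in limma, with empirical Bayes variances and Benjamini-Hochberg adjustment over all kept probes. A call needed an adjusted p under 0.05. Probe pairs were compared by an exact two-sided permutation test. Probes that failed the filter were taken from a fit without it. Alternatives took other intensity columns, background corrections, normalizations, filters, probes, blocks and weights, or left out each array. On simulated arrays of the same size with independent noise, limma called 80 of 100 probes changed 2-fold and 99 of 100 changed 4-fold. Of 15839 probes in all, it also called 11 that were unchanged. Smaller changes, such as the differences of the members, were not simulated. The number of arrays limits the precision. The methods describe removal of the left kidney of a rat, and the labels name no animal for an array, so that p-values measure the spread between these samples.

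The members and lists were chosen with earlier results of these data known. All members are named, as are genes among 24 listed ones fixed by role, by their brightest probe. The dimmer probes of Egf and Slc12a3 are given outside that rule. The values of some listed genes are not reported here, though the counts over the lists hold them. Gene names are those of the files. Of the 13 member probes, 11 had an accession in the RefSeq table of GRCr8, and 11 of these carry the same symbol there. Sequences are those of the array files. Of the columns that hold per-sample values, 0 went unused.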

Additional observations from a re-analysis of the deposited data

Results flagged for a closer look

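Among 74 groups of 4 or 5 arrays, over the probes of the members and the listed genes named by role, 6 held an array whose gap to its neighbour was large against the group's range (Dixon's test at 95%). About 3.7 would be flagged by chance. On both Trpm7 probes NP replicate 1 was the low array. On A_44_P550412 it had 8.37 against 9.11 for the next array, a gap of 0.774 of the range, and on A_64_P116734 it had 10.84 against 11.59, a gap of 0.848. On the latter probe MSC replicate 1 was low as well, at 11.46 against 11.80, with a gap of 0.867. NP replicate 1 was the high array for Mrs2, at 12.88 against 12.65, with a gap of 0.721. NP replicate 2 was high for Cnnm1, at 11.67 against 10.67 (gap 0.797 of the range), and low for Cldn10, at 13.64 against 14.06 (gap 0.759). The causes were not tested.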

How the results depend on the processing

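In 23 alternatives, limma called 0 member probes and 0 probes of the other genes at an adjusted p of 0.05. The lower mean of Slc41a1 in MSC kept its sign, from -0.48 to -0.38 for A_42_P662683 in 23 alternatives and from -0.37 to -0.12 for A_64_P049859 in the 21 that hold it. The number of members higher at an unadjusted p of 0.05, which was 1, was 0 with quantile normalization, and 0 to 1 in the fits that leave out 1 array, with 0 without NP replicate 1 or 2 or MSC replicate 1, 2 or 3. For the other genes, the number lower, which was 1, was 2 with quantile normalization, 2 without a filter, 2 with the filter on spots well above background and 3 with array weights. It was 1 to 4 when 1 array was left out, with 4 without NP replicate 1 or MSC replicate 4. The number higher, which was 12, was 7 to 14 then, with 7 without MSC replicate 4. The number of probe pairs past an adjusted exact p of 0.05, which was 0, was 0 to 1. It was 1 without MSC replicate 1 (Trpm7, difference 0.33) and 1 without MSC replicate 3 (Trpm6, -0.20), each with the smallest p that the remaining arrays can give. The causes were not tested. Of 791 single values 29 had another sign, each where the reported value lay within 1 SE of 0. Leaving out 1 array turned the sign of 26 of 35 values or moved them by over 1.5 times. Deviations of same-numbered arrays had correlations of 0.20, 0.32, -0.35 and 0.05. Arrays of unlike number were not compared, so these values cannot decide whether the replicate numbers pair the arrays. With the replicate block limma called 0 members and 0 other genes, and 13 other probes and 1 member probe were higher at an unadjusted p of 0.05. That member was Trpm7 A_64_P116734 (difference 0.29, unadjusted p 0.0488 and adjusted p 0.439 in limma) in place of Magt1 (0.29, unadjusted p 0.0974 and adjusted p 0.495).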
